A study of Mus musculus with 6 samples.

Results

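Ribosome biogenesis and nucleolar genes encode the proteins that transcribe, modify, cut and fold ribosomal RNA and assemble it into the 2 ribosomal subunits. The 45 genes described here were chosen by name, and a probe counted as theirs when it was not a control probe and its gene name was a listed symbol or a current or earlier symbol of it. They were 45 of the 22230 genes named on the arrays and had 69 of the 55681 probes. A total of 44 of the 45 were measured, with 14464 genes tested in all. Utp18, a component of the small subunit processome, was the exception, since it was not well above background on all arrays of either group.

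RNA came from G1E-ER-GATA-1 cells. This is a mouse line of red cell precursors without a Gata1 gene of its own, in which GATA-1 is joined to part of the estrogen receptor and maturation begins when β-estradiol is added. The 3 SetD8 siRNA arrays were from cells transfected with siRNA against Setd8 (now called Kmt5a), which adds a single methyl group to lysine 20 of histone H4, and the 3 Control siRNA arrays from cells transfected with non-targeting siRNA. Both groups carried the same GATA-1 fusion, received siRNA at 0 h and again at 24 h, received β-estradiol for 24 h and were harvested at 48 h. The labels do not say whether a group's arrays are separate cultures, so p-values reflect the spread between these arrays alone, which may be technical.

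Ribosomal RNA is transcribed by RNA polymerase I in the nucleolus as a long precursor. Small nucleolar ribonucleoproteins (snoRNPs) guide its methylation and pseudouridylation, and separate sets of assembly factors then build the small and the large subunit. Maturing red cells are known to shut ribosome production down as they stop growing, and MYC is a well-known activator of these genes.

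Each array held 59305 spots that were not controls, and 60.3% to 68.6% of them were well above background on the SetD8 siRNA arrays, against 40.2% to 82.5% on the Control siRNA arrays. SetD8 1, SetD8 2 and Control 1 shared a slide, SetD8 3 and Control 3 shared another, and Control 2 was alone on a slide scanned on another day. Values are given as log2 signal after normexp background correction and quantile normalization, unless the other scaling, log2 of the processed signal minus the array's 75th percentile, is named. Setd8 itself had log2 signals of 9.58, 9.26 and 9.25 on the SetD8 siRNA arrays, against 11.50, 11.58 and 11.25 on the Control siRNA arrays. It fell by 2.08 ± 0.15 (SE) on the log2 scale, with a limma adjusted p of 0.00855, and at the 75th percentile scaling the difference was -2.23 with an adjusted p of 0.565 and an exact two-sided permutation p of 0.1, the smallest that 3 against 3 arrays allow. Its call was lost without Control 1 and without each SetD8 siRNA array, with differences of -2.19 to -2.02. A dimmer Setd8 probe had 8.21, 8.25 and 8.72 on the SetD8 siRNA arrays, against 9.53, 9.12 and 9.91 on the Control siRNA arrays. That probe had a smaller difference of -1.13, with a limma adjusted p of 0.146 when each probe was tested alone. All 7 erythroid markers with a probe were well above background on every array.

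Most ribosome biogenesis genes had lower signals after SetD8 siRNA, by small amounts. The difference was negative for 40 of the 44 measured genes, against 45.8% of all genes tested, and its median was -0.35 against 0.03 for all genes. Of the 44, 3 passed the limma test and fell, 0 rose and 41 did not pass. The 3 were Sdad1, Dnajc21 and Mrto4, all large subunit factors, and across all genes 0.249% were called lower and 1.4% higher at the same threshold, an adjusted p under 0.05. All 3 SetD8 siRNA arrays lay below all 3 Control siRNA arrays for 23 of the 44, against 10.6% of all genes, and above them for 2, against 13.1% of all genes. An unadjusted p under 0.05 was found for 18 of the 44, all lower, against 15.9% of all genes in either direction and 6.81% lower. In bulk RNA, fewer cells of a type and less RNA per cell cannot be told apart.

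At the 75th percentile scaling the limma test called 0 of the 44 genes and 0 of all 14464 (0.0% in either direction), while 508 of all genes (3.51%) and 2 of the 44 had an unadjusted p under 0.05, both of them lower, as were 0.684% of all genes. The difference was then negative for 42 of the 44, with a median of -0.50 against 0.06 for all genes. Without Control 2 that median was -0.21, with 35 of the 44 negative, and with slide as a block -0.27, with 38 negative, and leaving out 1 array gave -0.87 to -0.21. The groups did not overlap, lower, for 7 of the 44 against 2.54% of all genes, and higher for 0 against 5.86%. At that scaling the median difference of all genes was 0.64 among genes in the lowest of 4 equal bins of signal level and -0.17 in the highest bin, which held 24 of the 44. After normexp and quantile normalization those medians were 0.05 and -0.01, and the 23 measured genes in the highest bin had a median of -0.32.

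**Figure D1:**
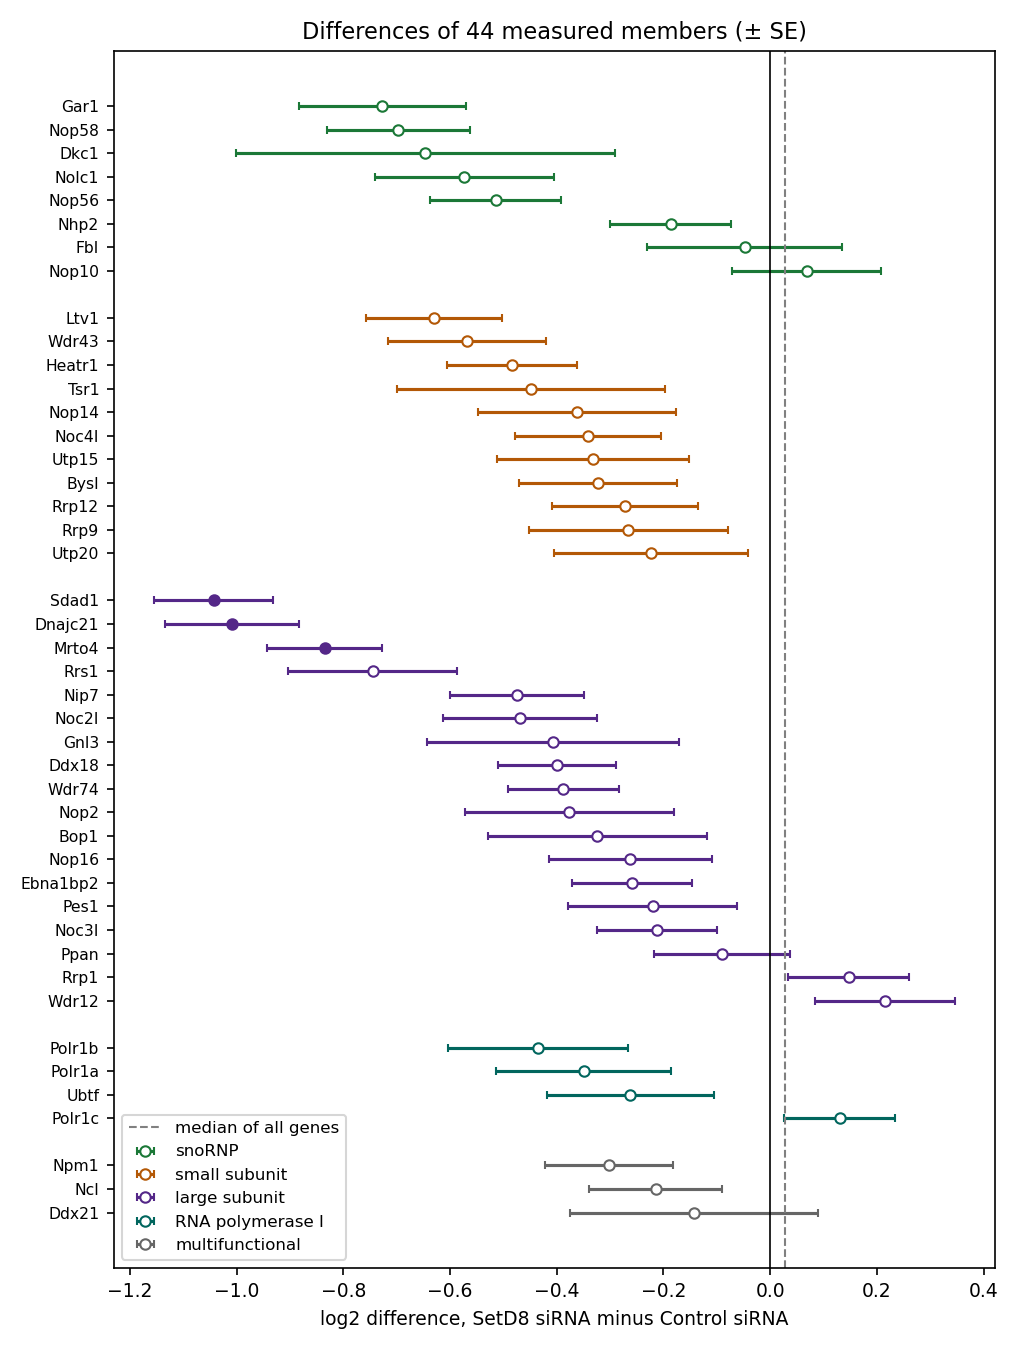
Each point is the log2 difference, SetD8 siRNA minus Control siRNA (horizontal axis), of 1 of 44 measured genes with its SE, after normexp and quantile normalization, grouped by role, and the dashed line is the median of all genes. Filled points are the 3 genes with an adjusted p under 0.05, Sdad1, Dnajc21 and Mrto4, and 40 of the 44 points lie below 0.

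Markers of other blood cells were measured beside these genes. The summed linear signal of the 5 megakaryocyte markers was 12184 to 26378 on the SetD8 siRNA arrays and 8010 to 18362 on the Control siRNA arrays, and 1 of them, Gp1ba, a platelet receptor subunit, rose by 0.79 ± 0.13 (SE, limma adjusted p = 0.0477, and 0.116 with slide as a block). That of the 3 kept macrophage and granulocyte markers of 5 was 1502 to 2022 on the SetD8 siRNA arrays and 817 to 1268 on the Control siRNA arrays, and 1 of them, Cd68, a lysosomal protein of macrophages, rose by 0.73 ± 0.11 (SE, limma adjusted p = 0.0336, and 0.134 with slide as a block). Of the 7 erythroid markers 0 passed the test, and the 2 with the smallest p were Slc4a1, the red cell anion exchanger, at -1.21 ± 0.38 (SE, limma adjusted p = 0.182), and Tfrc, the transferrin receptor, at -0.25 ± 0.14 (SE, limma adjusted p = 0.494). The median difference of the 7 was -0.02, and the highest was 0.02, for Klf1. Hba-a1, 1 of the 7, had a mean of 18.28 in both groups. Quantile normalization gives the brightest probe the same value on every array, so this marker may have been unable to differ. At the 75th percentile scaling all 7 had a negative difference, and 0 passed. In the highest of 4 equal bins of signal level, 71.5% of all genes were then negative too. The part of these markers in the lower ribosome biogenesis signals was not tested.

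Promoter sequences are shown for the 3 genes that fell and for the snoRNP and the small subunit gene with the smallest p, to set their motifs side by side. RefSeq promoters (GRCm38.p6, 250 bases before to 50 after the start) were listed for 40 of the 45. Capitals mark CACGTG, the E-box that MYC and related factors bind, and CCGGAA or its reverse complement TTCCGG, the core that ETS factors bind. The windows are chr5:92309975-92310274 (minus strand) for Sdad1, chr15:10470467-10470766 (minus) for Dnajc21, chr4:139352527-139352826 (minus) for Mrto4, chr1:59684756-59685055 (plus) for Nop58 and chr10:13193088-13193387 (minus) for Ltv1.
Sdad1: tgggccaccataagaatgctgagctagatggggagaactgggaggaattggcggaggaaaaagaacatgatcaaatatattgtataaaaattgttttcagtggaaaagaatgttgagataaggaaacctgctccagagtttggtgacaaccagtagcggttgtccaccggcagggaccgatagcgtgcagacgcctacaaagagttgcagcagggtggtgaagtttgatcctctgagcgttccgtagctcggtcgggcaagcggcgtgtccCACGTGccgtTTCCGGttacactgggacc
Dnajc21: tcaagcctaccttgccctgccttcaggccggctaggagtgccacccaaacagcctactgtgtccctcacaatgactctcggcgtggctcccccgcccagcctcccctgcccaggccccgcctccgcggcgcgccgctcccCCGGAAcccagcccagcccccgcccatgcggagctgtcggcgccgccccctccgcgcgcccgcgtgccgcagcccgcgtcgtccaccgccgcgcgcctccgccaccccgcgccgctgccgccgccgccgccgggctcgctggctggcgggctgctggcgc
Mrto4: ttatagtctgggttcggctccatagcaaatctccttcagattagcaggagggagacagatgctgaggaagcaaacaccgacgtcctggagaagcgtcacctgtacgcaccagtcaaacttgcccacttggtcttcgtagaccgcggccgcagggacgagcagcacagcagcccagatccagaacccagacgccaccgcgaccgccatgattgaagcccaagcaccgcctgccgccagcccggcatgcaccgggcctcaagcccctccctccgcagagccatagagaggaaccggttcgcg
Nop58: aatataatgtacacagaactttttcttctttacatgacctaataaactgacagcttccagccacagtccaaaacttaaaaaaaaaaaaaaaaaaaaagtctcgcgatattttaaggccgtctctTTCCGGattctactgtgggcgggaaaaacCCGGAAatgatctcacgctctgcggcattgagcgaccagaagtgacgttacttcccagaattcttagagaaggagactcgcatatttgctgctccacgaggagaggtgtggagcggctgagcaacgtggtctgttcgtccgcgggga
Ltv1: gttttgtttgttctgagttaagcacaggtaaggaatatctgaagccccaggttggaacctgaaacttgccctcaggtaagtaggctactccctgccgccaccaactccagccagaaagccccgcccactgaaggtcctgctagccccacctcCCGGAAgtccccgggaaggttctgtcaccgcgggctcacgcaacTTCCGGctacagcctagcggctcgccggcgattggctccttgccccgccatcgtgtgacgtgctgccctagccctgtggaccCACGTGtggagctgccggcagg
Sdad1 and Ltv1 held both motifs, Dnajc21 and Nop58 held CCGGAA alone, and Mrto4 held neither. A gene counted when any of its listed promoters held a motif, and the 40 genes had 48 promoters listed. On both strands, CACGTG was found for 8 of the 40 genes (20%). This compared with 10.8% of the tested genes with a listed promoter and 8.09% of all genes with one. CCGGAA was found in 21 (52.5%), against 27.9% and 16.7%. A total of 5 motifs were searched. GATAA is the core that GATA factors bind. It or its reverse complement TTATC was found for 2 of the 40 (5%), Sdad1 and Ubtf, against 21.9% of the tested genes and 28.4% of all. CCAAT or ATTGG was found in 14 (35%), against 42.9% and 41.1%, and CGCG in 34 (85%), against 64.8% and 40.6%. The median difference was -0.45 for the 7 measured genes with CACGTG and -0.35 for the 32 without, and -0.42 for the 20 with CCGGAA and -0.34 for the 19 without. A match describes these letters and was not tested as a binding site.

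The large subunit held the 3 genes that fell. For Sdad1, a large subunit assembly factor, the log2 signal was 10.01, 9.89 and 9.95 on the SetD8 siRNA arrays, against 11.12, 10.95 and 10.91 on the Control siRNA arrays. After normexp and quantile normalization the groups were separated by far more than the spread within either. Sdad1 fell by 1.04 ± 0.11 (SE), 2.06-fold, with a limma adjusted p of 0.0154. At the 75th percentile scaling its SD was 0.12 on the SetD8 siRNA arrays and 0.60 on the Control siRNA arrays. Dnajc21, a J-domain protein of late large subunit maturation, had 8.75, 8.43 and 8.64 on the SetD8 siRNA arrays, against 9.63, 9.54 and 9.68 on the Control siRNA arrays. It fell by 1.01 ± 0.13 (SE), 2.01-fold, with a limma adjusted p of 0.0228, and the groups did not overlap. Mrto4, a homologue of the stalk protein P0 that acts during large subunit assembly, had 10.15, 10.34 and 10.16 on the SetD8 siRNA arrays, against 11.04, 11.05 and 11.07 on the Control siRNA arrays. It fell by 0.83 ± 0.11 (SE), 1.78-fold, with a limma adjusted p of 0.0259. Its Control siRNA arrays were nearly identical after this normalization, but at the 75th percentile scaling they read 3.66, 4.12 and 2.87. The SetD8 siRNA arrays then read 2.49, 2.73 and 2.66.

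These 3 calls did not hold in every fit. With slide as a block the limma adjusted p was 0.0792 for Sdad1, 0.0974 for Dnajc21 and 0.117 for Mrto4, and without Control 2 it was 0.0609 for Mrto4. The calls of all 3 were also lost without Control 1 and without each SetD8 siRNA array, at adjusted p of 0.0914 to 0.177. Sdad1's call was lost with the mean of its kept probes (limma adjusted p = 0.103), and Mrto4's with every probe tested alone (limma adjusted p = 0.0664). Within the slide of Control 1 the differences were -1.17 for Sdad1, -1.04 for Dnajc21 and -0.79 for Mrto4, and within that of Control 3 they were -0.96, -1.04 and -0.91 in the same order. At the 75th percentile scaling the differences over all arrays were -1.20 for Sdad1, -1.23 for Dnajc21 and -0.92 for Mrto4, with limma adjusted p of 0.929, 0.886 and 0.929. Within the slide of Control 3 they were then smaller, at -0.42 for Sdad1, -0.73 for Dnajc21 and -0.21 for Mrto4, and within that of Control 1 they were -1.47, -1.36 and -1.05. Without Control 2 they were -0.97 for Sdad1, -1.07 for Dnajc21 and -0.64 for Mrto4.

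The other probes of these genes pointed the same way. Sdad1's second probe had a difference of -0.69, with an adjusted p of 0.598 when each probe was tested alone. The 3 probes of Dnajc21 had differences of -1.01, -0.86 and -0.28. The last was well above background on only 1 SetD8 siRNA array, and its groups overlapped. Its limma adjusted p was 0.754 when each probe was tested alone. The brighter Mrto4 probe lies on chromosome 4 (138903422 to 138903481, mm9), and the other, at -0.87, is placed by the array file on chromosome 12 (21831750 to 21831809, mm9), so its target is uncertain. Among the 18 genes with several kept probes, 17 had probes of 1 sign, and the exception was Rrp1.

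The other 15 large subunit genes did not pass the test, and their differences ran from -0.74 for Rrs1 to 0.22 for Wdr12. Wdr12, which forms a complex with Pes1 and Bop1 in large subunit maturation, had 11.43, 11.40 and 11.20 on the SetD8 siRNA arrays, against 11.13, 11.27 and 10.97 on the Control siRNA arrays, with overlapping groups. This probe is placed by the array file on chromosome 7 (13765490 to 13765549, mm9), so its target is uncertain. Its difference was 0.22 ± 0.13 (SE, limma adjusted p = 0.516). The dimmer Wdr12 probe, on chromosome 1 (60134539 to 60134598, mm9), had 8.39, 8.27 and 8.11 on the SetD8 siRNA arrays, against 8.26, 8.53 and 7.33 on the Control siRNA arrays, also overlapping, with a limma adjusted p of 0.891 when each probe was tested alone. Its partners Pes1 and Bop1 had differences of -0.22 and -0.32 (adjusted p of 0.597 and 0.534). The median of the 18 was -0.38.

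**Figure D2:**
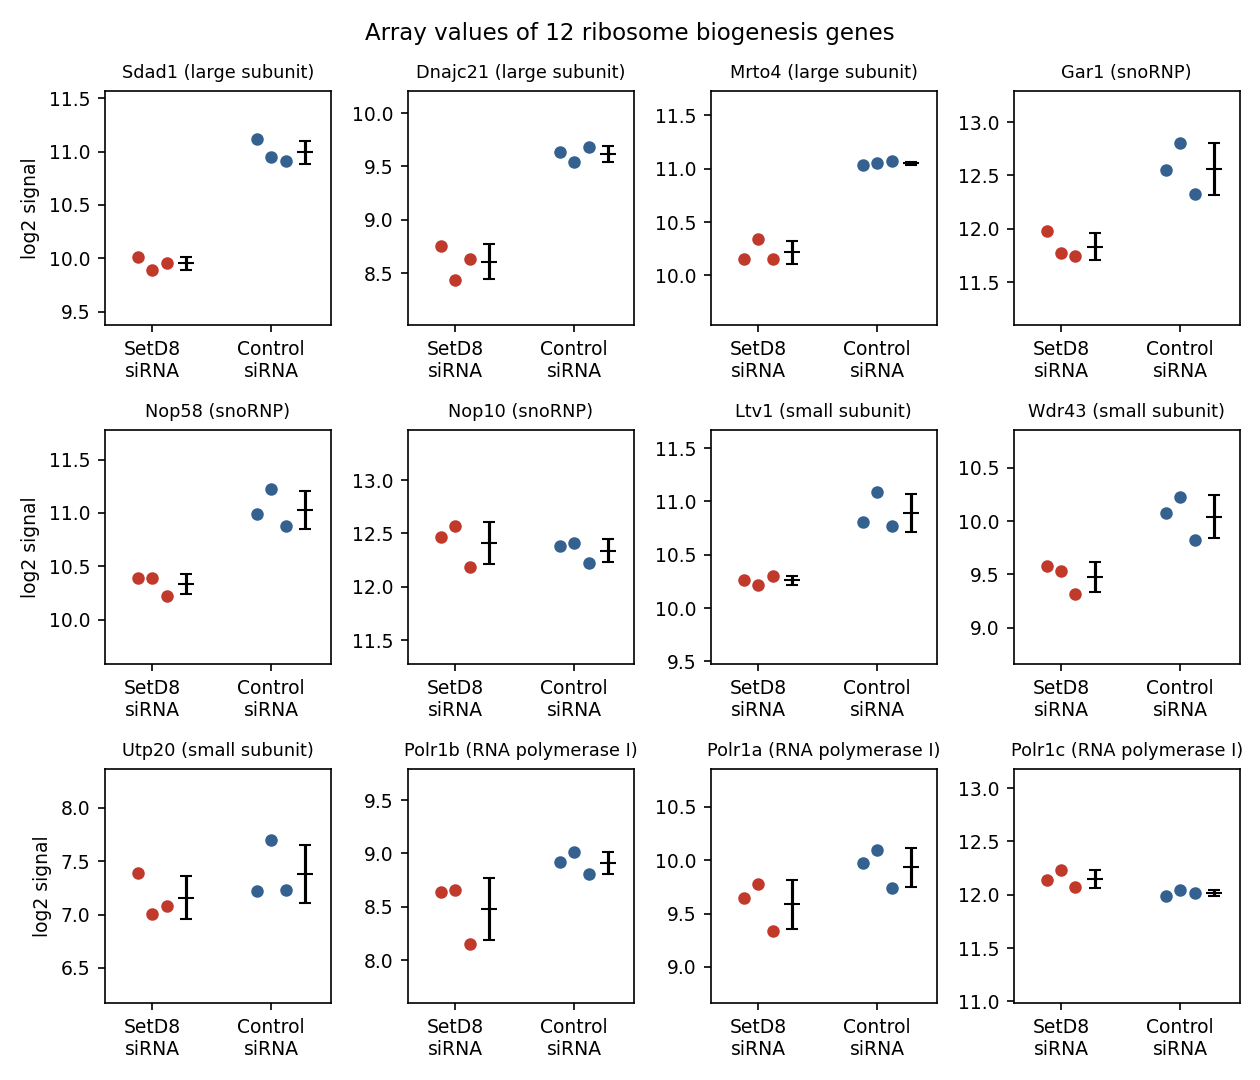
Points are the log2 signals (vertical axis) of 12 genes on the 3 SetD8 siRNA arrays (red, left) and the 3 Control siRNA arrays (blue, right), with the mean and SD beside them, and every panel spans the same log2 range. The groups are separate for Sdad1, Dnajc21, Mrto4, Gar1, Nop58, Ltv1, Wdr43 and Polr1b, they overlap for Nop10, Utp20 and Polr1a, and for Polr1c the SetD8 siRNA values are the higher ones.

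The snoRNP genes had the most negative median of the 5 roles, -0.54 over 8 genes, of which 7 were negative, and 0 passed the test. Gar1, a core protein of the pseudouridylation (H/ACA) particles, had 11.98, 11.78 and 11.75 on the SetD8 siRNA arrays, against 12.55, 12.81 and 12.32 on the Control siRNA arrays. Its groups did not overlap, and the difference was -0.73 ± 0.16 (SE, limma adjusted p = 0.0839). Nop58, a core protein of the methylation (C/D) particles, had 10.39, 10.39 and 10.22 on the SetD8 siRNA arrays, against 10.99, 11.23 and 10.88 on the Control siRNA arrays, a difference of -0.70 ± 0.13 (SE, limma adjusted p = 0.0645). Partners in the same particles had smaller differences, although that of Dkc1 was close to that of Gar1. Nop10, of the same particles as Gar1, had 12.47, 12.57 and 12.19 on the SetD8 siRNA arrays, against 12.39, 12.41 and 12.22 on the Control siRNA arrays, a difference of 0.07 ± 0.14 (SE, limma adjusted p = 0.878) with overlapping groups. Fbl, the methyltransferase of the C/D particles, had a difference of -0.05 and Nop56, another of their core proteins, -0.51. Nhp2, also of the H/ACA particles, had -0.19. Dkc1, the pseudouridine synthase, had -0.65 with the largest SE of the group, 0.36, and its difference was 0.11 within the slide of Control 3. At the 75th percentile scaling Dkc1 was the most negative of the 8, at -1.22 against -0.89 for Gar1 (limma adjusted p of 0.929 for both).

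All 11 measured small subunit genes had a negative difference, from -0.63 to -0.22 with a median of -0.34, and 0 passed the test. Ltv1, a factor of late small subunit assembly and export, had 10.27, 10.21 and 10.30 on the SetD8 siRNA arrays, against 10.81, 11.09 and 10.77 on the Control siRNA arrays. The groups did not overlap, and the difference was -0.63 ± 0.13 (SE, limma adjusted p = 0.0718). Wdr43, a processome component, had 9.58, 9.53 and 9.31 on the SetD8 siRNA arrays, against 10.07, 10.23 and 9.83 on the Control siRNA arrays, a difference of -0.57 ± 0.15 (SE, limma adjusted p = 0.124). The least negative was Utp20, with 7.39, 7.003 and 7.08 on the SetD8 siRNA arrays, against 7.22, 7.70 and 7.23 on the Control siRNA arrays, with overlapping groups and a difference of -0.22 ± 0.18 (SE, limma adjusted p = 0.652).

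Of the 4 RNA polymerase I genes, 3 had a negative difference and 0 passed the test. Polr1b, the second largest subunit, had 8.63, 8.65 and 8.15 on the SetD8 siRNA arrays, against 8.92, 9.01 and 8.81 on the Control siRNA arrays, a difference of -0.44 ± 0.17 (SE, limma adjusted p = 0.276). Polr1a, the largest subunit, had 9.65, 9.78 and 9.33 on the SetD8 siRNA arrays, against 9.97, 10.10 and 9.74 on the Control siRNA arrays, and the groups overlapped slightly. Its difference was -0.35 (limma adjusted p = 0.375), and that of Ubtf, the factor that opens ribosomal DNA for transcription, was -0.26. Polr1c, which polymerase III also uses, had 12.14, 12.24 and 12.07 on the SetD8 siRNA arrays, against 11.99, 12.05 and 12.02 on the Control siRNA arrays. Its SetD8 siRNA values were all the higher ones, by 0.13 (limma adjusted p = 0.642). The median of the 4 was -0.31.

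The 3 genes of multifunctional nucleolar proteins had a median of -0.21, and 0 passed. Npm1 had 14.61, 14.38 and 14.56 on the SetD8 siRNA arrays, against 14.80, 14.93 and 14.73 on the Control siRNA arrays, with a difference of -0.30 (limma adjusted p = 0.291). Its 4 probes gave -0.67 to -0.26, and near-identical copies of the gene make its values uncertain. Ncl, nucleolin, had 14.25, 13.99 and 13.97 on the SetD8 siRNA arrays, against 14.33, 14.32 and 14.20 on the Control siRNA arrays. Ddx21, a nucleolar RNA helicase, had 8.81, 8.96 and 8.61 on the SetD8 siRNA arrays, against 9.07, 9.29 and 8.46 on the Control siRNA arrays, so that Control 3 was the lowest of all. No difference between the roles was tested.

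The genes moved with the arrays as well as with the groups. The median deviation of the 44 from their 6-array means was -0.17, -0.12 and -0.32 on SetD8 1, 2 and 3, against 0.20, 0.34 and 0.06 on Control 1, 2 and 3. Control 2, the highest, had the smallest share of spots well above background, and Control 3, the lowest of the controls, had the largest; the part of this in the result was not tested. At the 75th percentile scaling the medians were -0.28, -0.22 and -0.38 on the SetD8 siRNA arrays, against 0.35, 0.91 and -0.50 on the Control siRNA arrays, so the groups overlapped through Control 3.

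**Figure D3:**
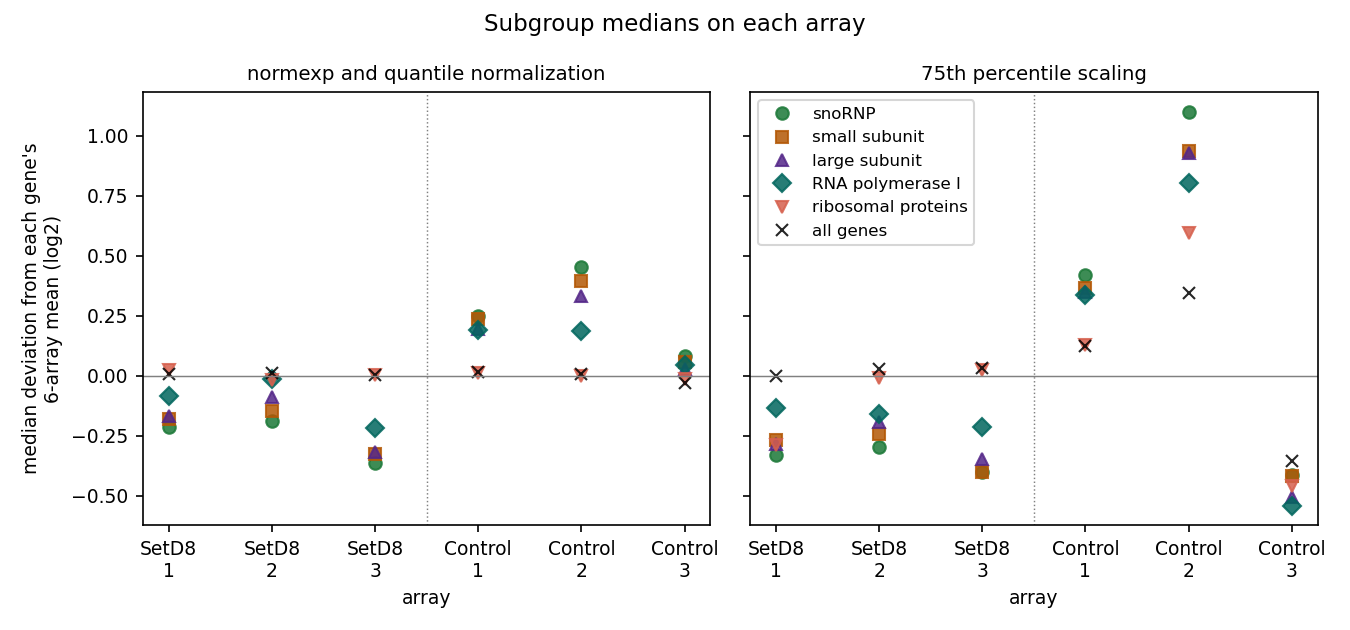
Each symbol is the median deviation of a gene group from its genes' 6-array means (vertical axis, log2) on 1 array (horizontal axis), at both scalings. On the left all 4 roles lie below 0 on the SetD8 siRNA arrays and above 0 on the Control siRNA arrays, and on the right Control 3 lies at or below the SetD8 siRNA arrays.

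Within slides the direction held at 1 scaling and not at the other. After normexp and quantile normalization the median of the 44 was -0.30 within the slide of Control 1 and -0.37 within that of Control 3, and 37 of the 44 were negative in both (84.1%), against 26.0% of all genes. With the 75th percentile scaling, the median was -0.56 within the first, with 43 of 44 negative, but 0.13 within the other, with 13 of 44 negative, where the median of all genes was 0.32.

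**Figure D4:**
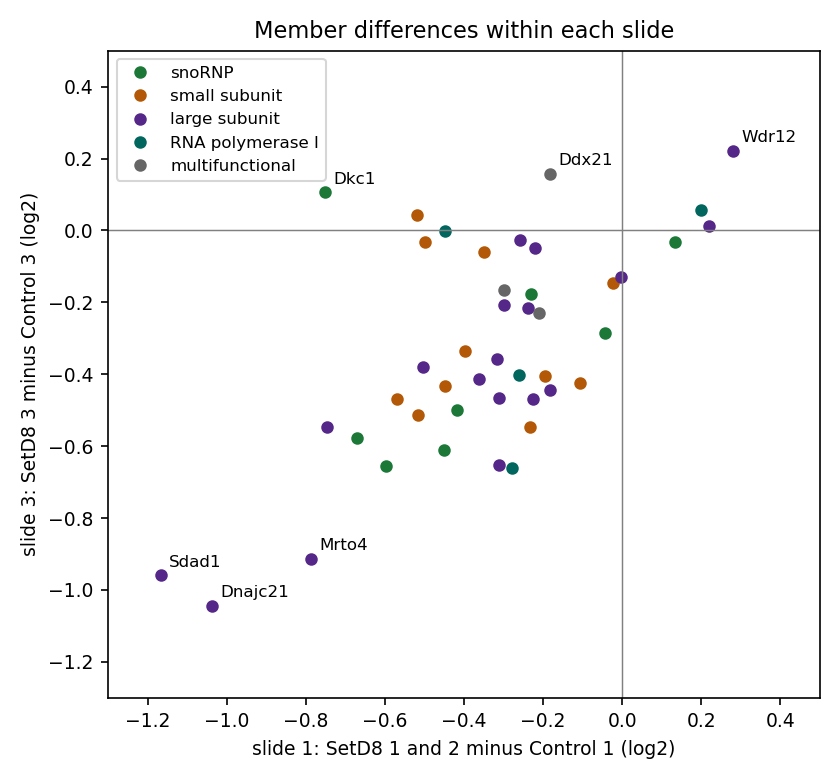
Each point is 1 of 44 genes, with its log2 difference within the slide of Control 1 on the horizontal axis and within that of Control 3 on the vertical axis, after normexp and quantile normalization. A total of 37 points lie below 0 on both axes, and Sdad1, Dnajc21 and Mrto4 lie lowest on both.

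A wider list of 112 other ribosome biogenesis genes, of which 106 were measured, was set beside the 44. Of these 95 were negative, with a median of -0.24, and 0 passed the test. The smallest p-values were those of Nat10, the RNA cytidine acetyltransferase of the nucleolus, at -0.53 ± 0.12 (SE, limma adjusted p = 0.0878), and Ruvbl2, an ATPase of snoRNP assembly, at -0.68 ± 0.15 (SE, limma adjusted p = 0.0885). The 78 ribosomal protein genes, the structural part of the ribosome, were negative for 35 with a median of 0.01, and 0 passed. Their direction depended on the scaling: at the 75th percentile 72 of the 78 were negative, with a median of -0.19. Among all genes in the highest of 4 equal bins of signal level, 71.5% were negative at that scaling, with a median of -0.17. Myc had 9.65, 8.89 and 9.02 on the SetD8 siRNA arrays, against 9.82, 9.82 and 9.17 on the Control siRNA arrays, with overlapping groups, and a difference of -0.42 ± 0.27 (SE, limma adjusted p = 0.543).

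**Figure D5:**
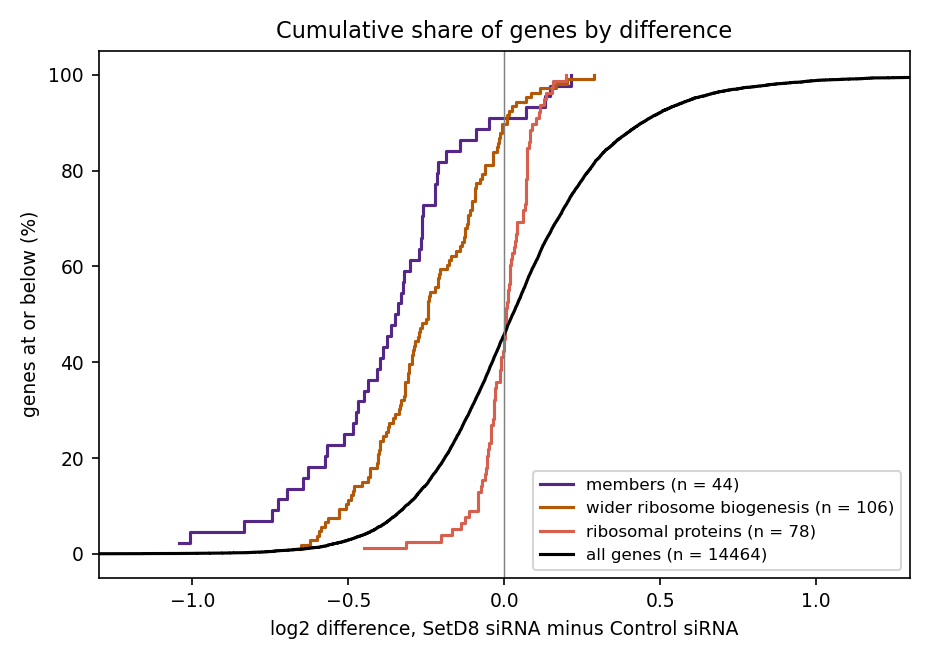
Lines give the percent of genes (vertical axis) at or below a log2 difference, SetD8 siRNA minus Control siRNA (horizontal axis), after normexp and quantile normalization. Over most of the range the line of the 44 genes lies furthest left, with 40 below 0, then that of the 106 wider biogenesis genes, with 95 below 0, while that of the 78 ribosomal protein genes is centred near 0.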

How the data were processed

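The deposited files give each spot's linear intensity from 1-colour Cy3 arrays, read with Agilent Feature Extraction (version 10.7.3.1, per the file headers), with probe coordinates on mm9. The submitters' processing notes name limma, and the authors' own normalization is not stated in the sources used here. Control spots and outlier spots were left out and replicate spots averaged. Probes well above background on every array of either group were kept, and the brightest kept probe stood for its gene. The planned default was log2 of the processed signal minus each array's 75th percentile. Because it called 0 genes, genes are described after normexp (offset 50) and quantile normalization, a setting chosen in earlier work after counts were seen. Folds of dim genes are understated by the offset. Differences were tested over all genes with limma 3.58.1 in R 4.3.3 (lmFit, eBayes, two-sided, Benjamini-Hochberg, threshold 0.05), and the test was run on simulated data. Python 3.11.15, pandas 2.3.3, numpy 2.4.6 and matplotlib 3.10.9 were used. Array values are given for genes past the threshold and, in each role, for the 2 most negative differences and the 1 most positive. The genes, lists and rules were chosen with earlier results of these data known. The number of arrays limits the precision. Alternatives were other scalings, filters, probe summaries, moderation, array weights, slide and replicate number as blocks, and leaving out each array.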

Additional observations from a re-analysis of the deposited data

How the results depend on the processing

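The lower direction of the 44 genes relative to all genes held under every alternative run at either scaling, while the calls did not. Counts below are of genes, or of probes where stated, called with limma at an adjusted p under 0.05. After normexp and quantile normalization, 203 genes were higher, 36 lower, and 3 of the 44 lower. These counts were 443, 192 and 7 with only probes well above background on all arrays, 632, 365 and 13 with trend and robust moderation, 1920, 1957 and 31 with array weights, 13, 1 and 0 with slide as a block, and 47, 2 and 0 with normexp and the 75th percentile. The share of all genes called lower was 1.77% of 10842 with the all-array filter. It was 2.52% with trend and robust moderation and 13.5% with array weights. With every probe tested alone, 107 of 30997 probes were higher and 10 lower. With an offset of 16, 119 genes were higher and 14 lower. With the replicate block the 3 gene counts were 0, 0 and 0, and Setd8 was -2.08 and no longer past the threshold. Whether the replicate numbers pair the samples is not stated in the labels. Deviations of same-numbered arrays from their group means correlated at 0.18, -0.25 and -0.19. With 3 arrays in each group, these values cannot settle it. Leaving out 1 array gave 0 to 178 higher, 0 to 39 lower and 0 to 4 of the 44, and Setd8 at -2.19 to -2.01. The median of the 44 minus that of all genes was -0.52 with normexp and the 75th percentile, and by role it was then -0.55 (large subunit), -0.50 (RNA polymerase I) and -0.49 (multifunctional). Leaving out 1 array gave -0.64 to -0.39 for snoRNP, -0.51 to -0.27 for small subunit and -0.37 to -0.19 for multifunctional genes.

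At the 75th percentile scaling, where 0 genes were called, the counts higher and lower were 122 and 14 with only probes well above background on all arrays, 15 and 0 with trend and robust moderation, 2434 and 3489 with array weights (37 of the 44 lower), 118 and 13 with slide as a block, and 44 and 3 with quantile normalization. With array weights, 24.1% of all genes were called lower. Leaving out 1 array gave 0 to 127 and 0 to 10. Setd8 passed the threshold at -2.23, -2.40, -1.95 and -2.10 with the all-array filter, array weights, slide block and quantile normalization and without Control 2, ranged over -2.69 to -1.85 without 1 array, and was -1.38 within slide 3. Within slide 3, 13 of the 44 were negative, the RNA polymerase I median was 0.036 above that of all genes, and the sign turned for Nop10 (0.57), Ltv1 (0.10), Wdr43 (0.12), Polr1a (0.12), Npm1 (0.22), Ncl (0.32) and Ddx21 (0.39). Nop10 also turned with slide as a block (0.18), quantile normalization (0.057), and without SetD8 3 (0.029) or Control 2 (0.28), and Wdr12 with median scaling (-0.43). Leaving out 1 array gave -0.52 to 0.28 for Nop10, -0.30 to 0.43 for Wdr12, -0.32 to 0.31 for Polr1c and -0.75 to 0.045 for Ddx21. Polr1c turned with array weights (-0.054), within slide 1 (-0.048) and with median scaling (-0.50). After normexp and quantile normalization, Nop10 turned within slide 3 (-0.033) and with normexp and the 75th percentile (-0.11), Polr1c with the last (-0.042), and Ddx21 within slide 3 (0.16), and leaving out 1 array gave -0.012 to 0.18 for Nop10 and -0.38 to 0.033 for Ddx21. The cause was not tested.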
